A study of Homo sapiens with 18 samples.

Results

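The mitochondrial ribosomal protein genes were taken as the genes on the array whose symbol starts with MRPL or MRPS followed by a digit. The rule found 74 genes, each read by 1 probe, of 17687 genes named on the array, whose 21448 probes include 17709 with a gene symbol. By symbol, 47 of them encode proteins of the large subunit and 27 proteins of the small subunit. The MRPS30 and MRPS18A proteins sit in the large subunit all the same. Their current symbols are the same as those of the array, and RefSeq places them on 21 chromosomes. RefSeq names 77 protein-coding genes with such symbols, and MRPL45, MRPL53 and MRPS6 were not analysed here. For 38 of the 74 genes RefSeq also names 1 or more pseudogenes, 9 for MRPS21 and 8 for MRPL57, and whether a probe reads such copies too was not tested.

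The mitochondrial ribosome translates the few messenger RNAs of mitochondrial DNA, which encode core subunits of the respiratory chain and of ATP synthase. Its ribosomal RNAs come from mitochondrial DNA, while each of its proteins is encoded in the nucleus, made in the cytosol and imported. Many of these proteins have a bacterial counterpart and others occur only in mitochondria. It assembles with the help of GTPases, helicases and enzymes that modify the ribosomal RNA. Oncoproteins of the MYC family, MYCN included, are known to raise nuclear genes for mitochondria.

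Total RNA came from 2 human neuroblastoma cell lines, SK-N-BE(2), which has amplified MYCN, and CHLA-90, which has not. Cells were seeded at 250000 per well in lentivirus made in HEK-293T cells and were sampled 72 h later. In each line 3 biological replicates carried shERK5-4 and 3 carried shERK5-5, both pLKO short hairpins against ERK5, and 3 carried the control hairpin shNSC. These 6 groups shared Iscove's medium with serum and an insulin, transferrin and selenium supplement, no group was left without virus, and each line is a single line grown in culture. The comparisons ask what the loss of ERK5, a mitogen-activated protein kinase encoded by MAPK7, does to the transcriptome.

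Values were log2 signals, so a difference of 1 is a doubling. MAPK7 read 7.15, 7.57 and 7.33 in CHLA-90 with shERK5-4 and 7.24, 7.83 and 7.22 with shERK5-5, against 8.37, 8.24 and 8.64 with shNSC. In SK-N-BE(2) it read 5.97, 6.28 and 6.02 with shERK5-4 and 6.14, 6.02 and 6.28 with shERK5-5, against 6.99, 6.46 and 6.90 with shNSC. Every array with a hairpin against ERK5 lay below every shNSC array of its line. Its changes, in a limma model over all 18 arrays with Benjamini-Hochberg adjustment over all probes, in CHLA-90 were -1.07 with shERK5-4 and -0.99 with shERK5-5 (SE 0.19, adjusted p = 0.000329 and 0.00139), and in SK-N-BE(2) they were -0.69 and -0.64 (adjusted p = 0.0103 and 0.0319). In SK-N-BE(2) leaving out shNSC replicate 1 ended the call with shERK5-4 (adjusted p = 0.0610), and leaving out shNSC replicate 1 or 3 or shERK5-5 replicate 1 or 2 ended that with shERK5-5 (adjusted p = 0.149, 0.110, 0.0833 and 0.123).

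Array medians were 6.35 to 6.43 in CHLA-90 and 5.63 to 5.69 in SK-N-BE(2), and arrays of a group correlated across probes with r of 0.988 to 0.997. The lower quartiles of the 3 CHLA-90 arrays with shERK5-5 were 4.19 to 4.29, against 4.10 to 4.15 with shNSC, and their upper quartiles 9.61 to 9.64 against 9.67 to 9.69. Of 8 neuroblast marker genes 7 were measured, and 6 of these lay above the array median in SK-N-BE(2). The exception was DBH, the enzyme that makes noradrenaline, at 4.51 in SK-N-BE(2) and 11.75 in CHLA-90. Markers of endothelium, Schwann cells and blood lay between 3.31 and 5.26 in both lines, apart from PTPRC, a leukocyte surface phosphatase, at 7.39 in SK-N-BE(2).

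Nearly all mitochondrial ribosomal protein genes gave signals in the upper part of the array. The mean signal over the 9 arrays of a line lay above the median of all probes for 69 of 74 genes in CHLA-90 and for 72 of 74 in SK-N-BE(2). It ranged from 5.10 to 16.4 in CHLA-90 and from 4.59 to 14.7 in SK-N-BE(2). MRPS21, a small-subunit protein with a bacterial counterpart, had the highest signal in both lines, followed by MRPL9 and MRPL51 in CHLA-90 and by MRPL51 and MRPS2 in SK-N-BE(2). The lowest signals belonged to MRPS12, MRPL54 and MRPL13 in CHLA-90 and to MRPS12, MRPS26 and MRPL54 in SK-N-BE(2). Signals of different probes also depend on the probe, so this order is not an order of abundance. The residual SD between replicates had a median of 0.246 over the 74 genes and of 0.248 over all probes.

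The mean signal of the 74 genes on an array was lowest in CHLA-90 with shERK5-5. In CHLA-90 it was 9.71 ± 0.045 with shERK5-4 and 9.27 ± 0.125 with shERK5-5, against 9.61 ± 0.057 with shNSC (SD, n = 3 each). The 3 shERK5-5 arrays read 9.13, 9.34 and 9.35 and lay below the lowest shNSC array at 9.56, while the shERK5-4 arrays, at 9.67 to 9.76, met the shNSC arrays at 9.67. In SK-N-BE(2) it was 9.53 ± 0.161 with shERK5-4 and 9.75 ± 0.031 with shERK5-5, against 9.69 ± 0.054 with shNSC (SD, n = 3 each). There the shERK5-4 arrays read 9.50, 9.39 and 9.71, and replicate 3 lay among the shNSC arrays at 9.63 to 9.74. In bulk RNA, less RNA per cell and fewer cells of a kind cannot be told apart.

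**Figure D1:**
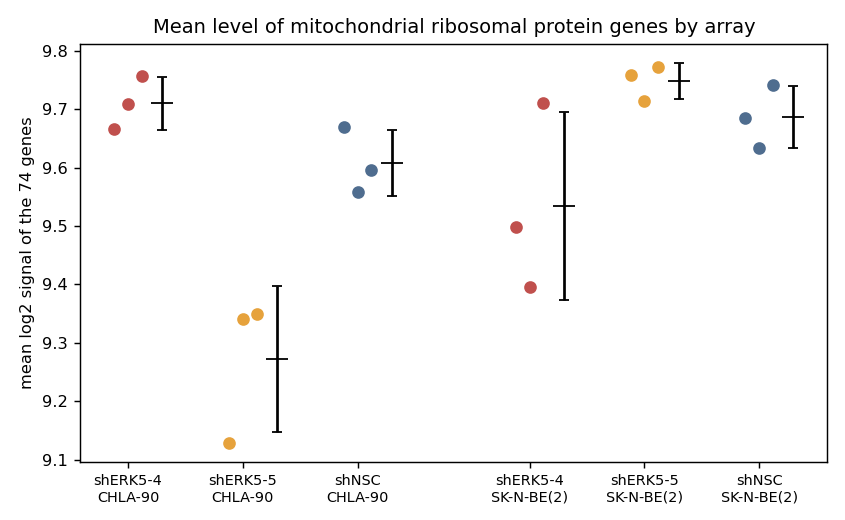
Mean log2 signal of the 74 genes on each array (y axis) for shERK5-4, shERK5-5 and shNSC in each line (x axis), with points for arrays and bars for the group mean ± SD (n = 3). The 3 CHLA-90 arrays with shERK5-5 sit at 9.13 to 9.35, below the other 15 arrays.

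The number of genes past the threshold, an adjusted p of 0.05, differed between the 4 comparisons with shNSC. With shERK5-4 in CHLA-90, 4 of 74 genes fell, beside 8.25% of all probes, and 8 rose, beside 10%, with a median change of 0.18 against 0.01 for all probes. With shERK5-5 in CHLA-90, 21 fell, beside 6.84% of all probes, and 3 rose, beside 5.85%, with medians of -0.33 and 0.05. Of the 4 comparisons this one had the share farthest from its background. With shERK5-4 in SK-N-BE(2), 14 fell, beside 11.7%, and 7 rose, beside 12.2%, with medians of -0.04 and 0.01. With shERK5-5 in SK-N-BE(2), 5 fell, beside 6.07%, and 6 rose, beside 6.76%, with medians of 0.10 and -0.00. In the last comparison counts in both directions lay near the shares of all probes. Bright probes, as most members are, were called more often, and shares by brightness are given below. Among bright probes the members' share of rises with shERK5-4 lay below that of all probes in both lines. Both hairpins of a line are compared with the same shNSC arrays.

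These counts moved when 1 array was left out. The shares of all probes were not counted with an array left out, so the counts that follow have no background. With shERK5-4 in CHLA-90 the number that rose was 5 without shNSC replicate 2 or 3 or shERK5-4 replicate 2, and 4 without shERK5-4 replicate 1 or 3. With shERK5-5 in CHLA-90 it was 1 without shNSC replicate 1 or 3 or shERK5-5 replicate 2. The 21 genes that fell there became 11 without shNSC replicate 1 or 3 and 12 without shERK5-5 replicate 1. In SK-N-BE(2) the rises were as easily lost. The number with shERK5-4 was 3 without shNSC replicate 2 and 4 without shERK5-4 replicate 3. With shERK5-5 it was 3 without shNSC replicate 1 or 2 or shERK5-5 replicate 1 or 3.

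**Figure D2:**
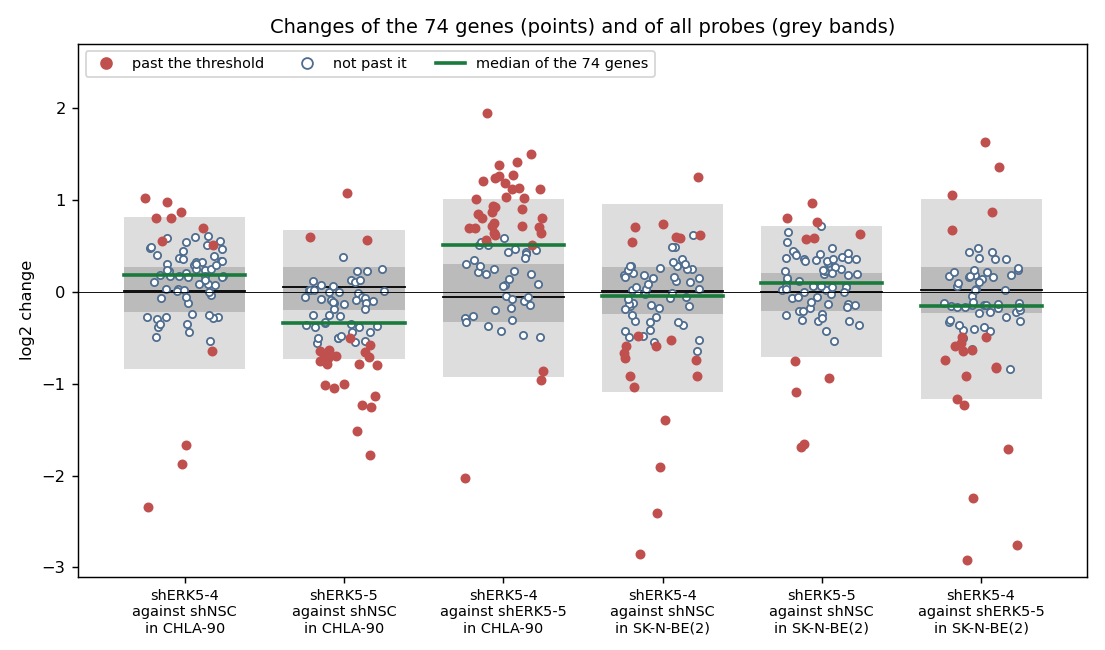
Log2 change of each of the 74 genes (points) in 6 comparisons (x axis), filled where the adjusted p is below 0.05. Grey bands span the 5 to 95 and 25 to 75 percentiles of all probes, the black line is the median of all probes and the green line that of the 74 genes, which is -0.33 for shERK5-5 against shNSC and 0.51 for shERK5-4 against shERK5-5 in CHLA-90.

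MRPL47, MRPL40 and MRPL49 fell steeply with shERK5-4 in both lines. All are proteins of the large subunit, and MRPL47 has a bacterial counterpart at the exit of the peptide tunnel. MRPL47 read 9.47, 9.07 and 9.59 in CHLA-90 with shERK5-4 and 10.69, 11.79 and 11.72 with shERK5-5, against 11.70, 11.85 and 11.62 with shNSC. Its SK-N-BE(2) signals were 8.66, 8.31 and 8.26 with shERK5-4 and 11.47, 11.18 and 11.35 with shERK5-5, against 11.35, 11.29 and 11.16 with shNSC. The shERK5-4 arrays of each line stood more than 1 log2 unit below every other array of that line. The changes with shERK5-4 were -2.35 in CHLA-90 and -2.86 in SK-N-BE(2) (SE 0.23, adjusted p = 8.15e-08 and 2.53e-09), or 19.7% and 13.8% of the shNSC signal. With shERK5-5 they were -0.32 and 0.07 (adjusted p = 0.400 and 0.924).

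MRPL40, whose gene lies in the region of chromosome 22 deleted in velocardiofacial syndrome, read 9.26, 9.08 and 9.46 in CHLA-90 with shERK5-4 and 9.67, 10.38 and 10.64 with shERK5-5, against 11.12, 10.89 and 10.80 with shNSC. There the 3 groups did not overlap, with shERK5-4 lowest. Its SK-N-BE(2) signals were 9.02, 8.78 and 8.98 with shERK5-4 and 11.62, 11.61 and 11.82 with shERK5-5, against 11.34, 11.08 and 11.57 with shNSC. Its changes with shERK5-4 were -1.67 in CHLA-90 and -2.40 in SK-N-BE(2) (SE 0.21, adjusted p = 2.69e-06 and 8.1e-09). With shERK5-5 it fell by 0.71 in CHLA-90 (adjusted p = 0.0262), a call lost without shNSC replicate 1 or 2 or shERK5-5 replicate 1 (adjusted p = 0.112, 0.0563 and 0.172) and in the fit to CHLA-90 alone (0.0590). In SK-N-BE(2) its value with shERK5-5 was 0.35 (adjusted p = 0.349).

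MRPL49, a large-subunit protein that occurs only in mitochondria, read 7.35, 7.57 and 7.82 in CHLA-90 with shERK5-4 and 7.85, 8.69 and 8.79 with shERK5-5, against 9.44, 9.23 and 9.69 with shNSC. The SK-N-BE(2) arrays gave 7.89, 6.79 and 8.0 with shERK5-4 and 9.70, 9.59 and 10.13 with shERK5-5, against 9.56, 9.12 and 9.72 with shNSC. The shERK5-4 arrays lay below all others of their line, and in CHLA-90 the shERK5-5 arrays lay between the other groups. The changes with shERK5-4 were -1.87 in CHLA-90 and -1.91 in SK-N-BE(2) (SE 0.28, adjusted p = 3.65e-05 and 1.76e-05). The CHLA-90 change with shERK5-5 was -1.01 (adjusted p = 0.0203), lost without shNSC replicate 1 or 3 or shERK5-5 replicate 1 (adjusted p = 0.0539, 0.0936 and 0.131). In all, 4 of 74 genes (5.41%) fell with shERK5-4 in both lines, these and MRPL57, beside 5% of all probes. The share that fell was thus near that of all probes. MRPS30 alone rose with it in both, beside 5.43%.

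Because these 3 genes moved together with 1 hairpin, the sequence around their start sites is shown, chosen after the values were seen. Each line gives 150 bases, 100 before and 50 after the annotated start, from RefSeq on GRCh38.p14, read 5′ to 3′ on the strand of the gene. Capitals mark the letters of an ETS motif (CCGGAAG), a YY1 motif (AAGATGG), an NRF1 motif (GCGCATGC), an E-box (CACGTG) or a TATA box (TATAAA), searched on both strands. The regions are chr3:179604589-179604738 on the minus strand for MRPL47, chr22:19432445-19432594 on the plus strand for MRPL40 and chr11:65122083-65122232 on the plus strand for MRPL49.
MRPL47: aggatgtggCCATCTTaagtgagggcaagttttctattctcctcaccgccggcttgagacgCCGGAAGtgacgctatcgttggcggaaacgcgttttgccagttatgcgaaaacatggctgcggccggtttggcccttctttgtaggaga
MRPL40: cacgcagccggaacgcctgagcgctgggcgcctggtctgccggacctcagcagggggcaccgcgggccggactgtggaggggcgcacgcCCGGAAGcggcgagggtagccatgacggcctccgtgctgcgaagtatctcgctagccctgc
MRPL49: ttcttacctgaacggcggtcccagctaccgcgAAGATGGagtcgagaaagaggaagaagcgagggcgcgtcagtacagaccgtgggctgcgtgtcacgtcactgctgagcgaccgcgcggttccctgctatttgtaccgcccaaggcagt
MRPL47 held a YY1 match, on the opposite strand, and an ETS match, MRPL40 an ETS match and MRPL49 a YY1 match. A match is a description of letters, not a bound site or a cause.

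A RefSeq promoter of 250 bases before to 50 after the start was found for 66 of the 74 genes. The ETS motif was in 28 of the 66 (42.4%), against 10.7% of 27305 genes, and the YY1 motif in 22 (33.3%), against 6.06%. The NRF1 motif was in 6 (9.09%), against 3.27%. An E-box, the motif that MYC proteins bind, was in 5 (7.58%), against 7.43%, and a TATA box in 2 (3.03%), against 11.95%. Factors of the ETS family, YY1 and NRF1 are known to bind in promoters of nuclear genes for mitochondria. The 27305 genes also hold non-coding ones such as MRPS30-DT, while the members all encode proteins, so the shares are not of like genes. The shares describe these windows and were not tested against the expression values.

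MRPL13, MRPS10 and MRPS35 fell with shERK5-5 in both lines, and none of them passed the threshold with shERK5-4 in either line. MRPL13, a large-subunit protein with a bacterial counterpart, read 6.95, 6.66 and 6.65 in CHLA-90 with shERK5-4 and 4.24, 5.09 and 5.08 with shERK5-5, against 6.61, 6.80 and 6.32 with shNSC. The SK-N-BE(2) arrays gave 7.05, 6.11 and 6.76 with shERK5-4 and 4.68, 5.03 and 5.30 with shERK5-5, against 6.59, 6.59 and 6.81 with shNSC. In both lines every shERK5-5 array lay below every other array. The CHLA-90 value of 4.24 lay below the lower quartile of that array at 4.29, and the background of the probe is unknown. Its changes with shERK5-5 were -1.77 in CHLA-90 and -1.66 in SK-N-BE(2) (SE 0.24, adjusted p = 2.76e-05 and 3.74e-05), and those with shERK5-4 were 0.18 and -0.02 (adjusted p = 0.716 and 0.968).

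MRPS10, a small-subunit protein with a bacterial counterpart, read 10.67, 10.41 and 10.37 in CHLA-90 with shERK5-4 and 8.97, 9.17 and 9.15 with shERK5-5, against 10.42, 10.65 and 9.99 with shNSC. Its signals in SK-N-BE(2) were 9.52, 8.99 and 9.49 with shERK5-4 and 7.81, 8.03 and 8.07 with shERK5-5, against 9.62, 9.53 and 9.83 with shNSC. The shERK5-5 arrays again stood apart below the others. With shERK5-5 it fell by 1.26 in CHLA-90 and by 1.69 in SK-N-BE(2) (SE 0.19, adjusted p = 7.51e-05 and 1.03e-06). With shERK5-4 the values were 0.13 and -0.33 (adjusted p = 0.730 and 0.246).

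MRPS35, a small-subunit protein that occurs only in mitochondria, read 11.71, 11.66 and 11.62 in CHLA-90 with shERK5-4 and 10.15, 10.38 and 10.23 with shERK5-5, against 11.34, 11.31 and 11.13 with shNSC. In SK-N-BE(2) it read 11.70, 11.55 and 11.81 with shERK5-4 and 10.87, 11.18 and 11.00 with shERK5-5, against 11.72, 11.59 and 11.98 with shNSC. The shERK5-5 arrays lay below the others in both lines. The changes with shERK5-5 were -1.01 and -0.75 (SE 0.16, adjusted p = 0.000114 and 0.00173 in CHLA-90 and SK-N-BE(2)), and those with shERK5-4 were 0.40 and -0.08 (adjusted p = 0.0785 and 0.806). With MRPL57, 4 genes fell with shERK5-5 in both lines, beside 2.63% of all probes, and MRPS23 alone rose in both, beside 1.94%.

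The start regions of the genes that fell with shERK5-5 are shown next for the members printed here, chr6:42217812-42217961 on the minus strand for MRPS10 and chr12:27710732-27710881 on the plus strand for MRPS35, with the source, length and capitals as above.
MRPS10: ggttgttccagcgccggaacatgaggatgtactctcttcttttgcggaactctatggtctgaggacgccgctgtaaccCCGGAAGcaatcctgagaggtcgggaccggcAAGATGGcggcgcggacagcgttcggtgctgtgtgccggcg
MRPS35: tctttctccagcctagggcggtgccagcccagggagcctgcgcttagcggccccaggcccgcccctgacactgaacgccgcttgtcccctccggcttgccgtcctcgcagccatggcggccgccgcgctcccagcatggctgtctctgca
MRPS10 held an ETS and a YY1 match, and MRPS35 none of the searched motifs in these letters.

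**Figure D3:**
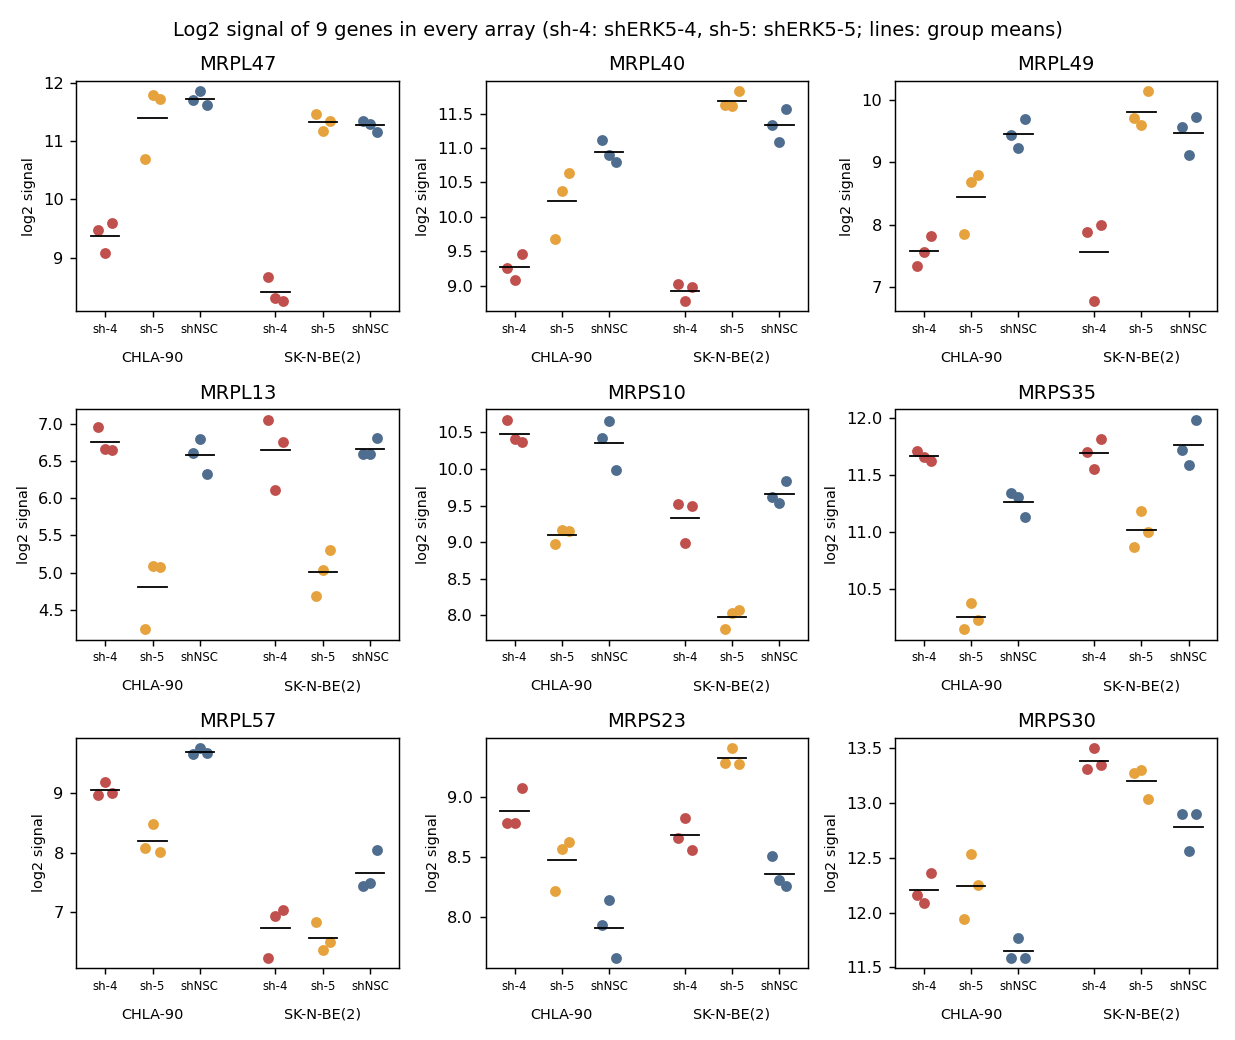
Log2 signal of 9 genes on each array (y axis), grouped by line and by shERK5-4, shERK5-5 and shNSC (x axis), 1 panel per gene and 1 point per array. MRPL47, MRPL40 and MRPL49 are low with shERK5-4, MRPL13, MRPS10 and MRPS35 with shERK5-5, and MRPL57 with either hairpin in both lines.

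MRPL57 was the only one of the 74 genes past the threshold in all 4 comparisons with shNSC. It encodes a small large-subunit protein that occurs only in mitochondria. In CHLA-90 it read 8.98, 9.20 and 9.0 with shERK5-4 and 8.08, 8.48 and 8.02 with shERK5-5, against 9.67, 9.76 and 9.68 with shNSC. SK-N-BE(2) arrays read 6.23, 6.94 and 7.03 with shERK5-4 and 6.83, 6.36 and 6.49 with shERK5-5, against 7.43, 7.49 and 8.04 with shNSC. All 12 arrays with a hairpin against ERK5 lay below the shNSC arrays of their line. Its changes with shERK5-4 were -0.64 in CHLA-90 and -0.92 in SK-N-BE(2) (SE 0.21, adjusted p = 0.0368 and 0.00211), and with shERK5-5 -1.51 and -1.09 (adjusted p = 3.75e-05 and 0.000873). The CHLA-90 call with shERK5-4 was lost without any 1 of the 6 arrays compared, with adjusted p of 0.0775, 0.104 and 0.0788 without shNSC replicate 1, 2 and 3 and of 0.109, 0.0553 and 0.105 without shERK5-4 replicate 1, 2 and 3. RefSeq names 8 pseudogenes of MRPL57, so its values are uncertain to that extent.

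MRPS30 and MRPS23 rose in 3 of the 4 comparisons. MRPS30, also known as PDCD9, carries an MRPS symbol but sits in the large subunit of the mammalian ribosome. It read 12.16, 12.09 and 12.36 in CHLA-90 with shERK5-4 and 11.94, 12.54 and 12.25 with shERK5-5, against 11.59, 11.77 and 11.59 with shNSC. In SK-N-BE(2) it read 13.31, 13.50 and 13.35 with shERK5-4 and 13.28, 13.30 and 13.04 with shERK5-5, against 12.90, 12.56 and 12.90 with shNSC. In each line every array with a hairpin against ERK5 lay above every shNSC array. Its changes in CHLA-90 were 0.55 with shERK5-4 and 0.59 with shERK5-5 (SE 0.17, adjusted p = 0.0258 and 0.0242), and in SK-N-BE(2) 0.60 and 0.42 (adjusted p = 0.0113 and 0.127). These were calls near the threshold. The CHLA-90 call with shERK5-4 was lost without shNSC replicate 1 or 3 or shERK5-4 replicate 1 or 3 (adjusted p = 0.0836, 0.0804, 0.0553 and 0.116), and the one with shERK5-5 without shNSC replicate 1 or 3 or shERK5-5 replicate 2 (adjusted p = 0.0818, 0.0830 and 0.116). That in SK-N-BE(2) was lost without shNSC replicate 2 (adjusted p = 0.0753), and with array weights the shERK5-5 value there passed too (adjusted p = 0.0308).

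MRPS23, a small-subunit protein, read 8.79, 8.79 and 9.08 in CHLA-90 with shERK5-4 and 8.22, 8.57 and 8.63 with shERK5-5, against 7.93, 8.14 and 7.66 with shNSC. In the SK-N-BE(2) line the signals were 8.66, 8.83 and 8.56 with shERK5-4 and 9.29, 9.41 and 9.28 with shERK5-5, against 8.51, 8.31 and 8.26 with shNSC. The larger change came with shERK5-4 in CHLA-90 and with shERK5-5 in SK-N-BE(2). It rose by 0.98 with shERK5-4 and by 0.56 with shERK5-5 in CHLA-90 (SE 0.17, adjusted p = 0.000177 and 0.0298) and by 0.97 with shERK5-5 in SK-N-BE(2) (adjusted p = 0.000287), where shERK5-4 gave 0.32 (adjusted p = 0.194). The shERK5-5 call in CHLA-90 was lost without shNSC replicate 1 or 3 or shERK5-5 replicate 2 or 3 (adjusted p = 0.0721, 0.160, 0.0830 and 0.0925) and in the fit to CHLA-90 alone (0.0628).

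MRPL57, MRPS30 and MRPS23 are some of the genes that moved the same way with both hairpins in a line. Their start regions are chr13:21176558-21176707 on the plus strand for MRPL57, chr5:44808847-44808996 on the plus strand for MRPS30 and chr17:57849995-57850144 on the minus strand for MRPS23, printed in the same manner. Those of MRPS2 and MRPS5 are not printed.
MRPL57: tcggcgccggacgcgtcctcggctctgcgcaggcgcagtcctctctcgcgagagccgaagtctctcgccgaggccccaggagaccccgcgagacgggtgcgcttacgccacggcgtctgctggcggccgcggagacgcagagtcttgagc
MRPS30: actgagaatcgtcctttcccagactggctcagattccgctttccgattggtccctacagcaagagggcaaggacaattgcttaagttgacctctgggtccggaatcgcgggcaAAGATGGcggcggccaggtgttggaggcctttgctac
MRPS23: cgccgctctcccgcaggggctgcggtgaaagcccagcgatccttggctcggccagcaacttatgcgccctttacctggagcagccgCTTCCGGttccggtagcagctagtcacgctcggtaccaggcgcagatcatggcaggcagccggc
MRPS30 held a YY1 match, MRPS23 an ETS match on the opposite strand, and MRPL57 no match in these letters.

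Agreement of both hairpins in a line was found for few members, as for few of all probes. In CHLA-90, 3 genes fell with both, MRPL40, MRPL49 and MRPL57, beside 1.77% of all probes, and 2 rose, MRPS23 and MRPS30, beside 1.74%. In SK-N-BE(2), MRPL57 fell with both, beside 2.36%, and 2 rose, MRPS2 and MRPS5, beside 2.85%. Apart from the falls in CHLA-90, these counts lay near the shares of all probes. With 1 to 3 genes per count, differences from all probes were not tested. Over the 4 comparisons, 28 genes passed the threshold in none, 46 (beside 39.7% of all probes) in 1 or more and 6 (beside 6.75%) in 3 or 4.

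Those few calls depended on single arrays. The 3 that fell in CHLA-90 became 0 without shNSC replicate 1 and 1 without shNSC replicate 2 or 3 or shERK5-5 replicate 1. The 2 that rose there became 0 without shNSC replicate 1 or 3 or shERK5-5 replicate 2, and 1 without shERK5-4 replicate 1 or 3. The 2 that rose in SK-N-BE(2) became 0 without shNSC replicate 2 or shERK5-4 replicate 2, and 1 without shNSC replicate 1, shERK5-4 replicate 3 or shERK5-5 replicate 1 or 2.

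MRPS2 and MRPS5, small-subunit proteins with bacterial counterparts, rose in SK-N-BE(2). MRPS2 read 13.52, 14.06 and 13.79 with shERK5-4 and 13.90, 13.85 and 13.74 with shERK5-5, against 13.28, 13.19 and 13.28 with shNSC. Its changes were 0.54 and 0.58 (SE 0.16, adjusted p = 0.0147 and 0.0163). In CHLA-90 MRPS2 moved the other way with shERK5-5, where it read 12.54, 12.59 and 12.78 with shERK5-4 and 11.67, 11.70 and 11.83 with shERK5-5, against 12.35, 12.06 and 12.31 with shNSC. There the change with shERK5-5 was -0.51 (adjusted p = 0.0398) and that with shERK5-4 was 0.40 (adjusted p = 0.0942). MRPS5 read 8.66, 9.20 and 9.39 in SK-N-BE(2) with shERK5-4 and 9.14, 9.25 and 9.29 with shERK5-5, against 8.47, 8.29 and 8.64 with shNSC, with changes of 0.62 and 0.76 (SE 0.19, adjusted p = 0.0201 and 0.00858). Every hairpin array of both genes in SK-N-BE(2) lay above the shNSC arrays.

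Leaving out 1 array ended several of these calls. MRPS2 no longer passed with shERK5-4 without SK-N-BE(2) shNSC replicate 2 or shERK5-4 replicate 2 (adjusted p = 0.0534 and 0.0843), nor with shERK5-5 without shNSC replicate 2 or shERK5-5 replicate 1 or 2 (adjusted p = 0.0639, 0.0654 and 0.0546) or after quantile normalization (0.0564). MRPS5 no longer passed with shERK5-4 without shNSC replicate 1 or 2 or shERK5-4 replicate 2 or 3 (adjusted p = 0.0510, 0.0949, 0.0674 and 0.118), nor with shERK5-5 without shNSC replicate 2 (adjusted p = 0.0538).

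Further members of the large subunit changed with shERK5-4 in SK-N-BE(2). MRPL18, a relative of the bacterial protein that binds the 5S ribosomal RNA, read 9.97, 9.09 and 9.64 with shERK5-4 and 10.90, 11.54 and 11.40 with shERK5-5, against 10.96, 10.95 and 10.98 with shNSC. It fell by 1.40 (SE 0.20, adjusted p = 1.14e-05). MRPL11, a protein of the stalk base that contacts elongation factors, read 9.72, 9.01 and 9.62 with shERK5-4 and 10.78, 10.48 and 10.59 with shERK5-5, against 10.22, 10.51 and 10.72 with shNSC. Its change was -1.03 (SE 0.19, adjusted p = 0.000184). For both genes the shERK5-4 arrays lay below all others of the line. The other members of the stalk moved the other way: MRPL10, which anchors it, changed by 0.74 (SE 0.21, adjusted p = 0.0124) and MRPL12, which forms it and also binds the mitochondrial RNA polymerase, by 0.59 (SE 0.21, adjusted p = 0.0435). The MRPL12 call was lost without 7 of the 18 arrays, with adjusted p of 0.121 and 0.172 without SK-N-BE(2) shNSC replicate 1 and 3, 0.168 and 0.121 without shERK5-4 replicate 2 and 3, 0.0529 without shERK5-5 replicate 2, and 0.0502 and 0.0522 without CHLA-90 shNSC and shERK5-4 replicate 3. It was also lost with a replicate block (adjusted p = 0.0549), with all arrays set to the same median (0.0516) and with array weights (0.0527).

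MRPS9, a small-subunit protein with a bacterial counterpart, rose with shERK5-4 in SK-N-BE(2), where it read 10.77, 11.39 and 10.31 with shERK5-4 and 10.11, 9.67 and 9.53 with shERK5-5, against 9.81, 9.33 and 9.56 with shNSC. Its change of 1.26 (SE 0.23, adjusted p = 0.000245) was the largest rise among the 74 genes in that comparison. MRPL42, a large-subunit protein with 6 pseudogenes in RefSeq, read 13.99, 12.94 and 13.46 with shERK5-4 and 13.28, 13.41 and 13.20 with shERK5-5, against 12.84, 12.68 and 12.74 with shNSC. In CHLA-90 it read 13.28, 13.36 and 13.34 with shERK5-4 and 14.08, 14.01 and 13.31 with shERK5-5, against 12.67, 12.98 and 12.52 with shNSC. Every hairpin array of MRPL42 lay above the shNSC arrays of its line, and it passed the threshold with shERK5-4 in SK-N-BE(2) (0.71, SE 0.22, adjusted p = 0.0224) and with shERK5-5 in CHLA-90 (1.08, adjusted p = 0.00227). The first of these calls was lost without SK-N-BE(2) shNSC replicate 2 or 3 or shERK5-4 replicate 1 or 3 (adjusted p = 0.0713, 0.0588, 0.168 and 0.0504).

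With shERK5-5 in SK-N-BE(2) the remaining named changes were smaller. MRPL32, whose maturation by a mitochondrial protease precedes ribosome assembly, read 9.98, 9.35 and 9.72 with shERK5-4 and 8.62, 8.89 and 8.93 with shERK5-5, against 9.92, 9.64 and 9.70 with shNSC, and fell by 0.94 with shERK5-5 (SE 0.20, adjusted p = 0.00211). In CHLA-90 its value with shERK5-5 was -0.51 (adjusted p = 0.104). MRPL4, a protein that lines the peptide tunnel, rose by 0.80 (SE 0.22, adjusted p = 0.0184) and MRPL37 by 0.63 (SE 0.16, adjusted p = 0.00993). The MRPL4 call was lost without SK-N-BE(2) shNSC replicate 1 or shERK5-5 replicate 1 or 3 (adjusted p = 0.0824, 0.0694 and 0.136), and that of MRPL37 without shNSC replicate 1 or shERK5-5 replicate 3 (adjusted p = 0.0746 and 0.0519).

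With shERK5-4 in CHLA-90, the 8 genes that rose were MRPS24, MRPS23, MRPL23, MRPL24, MRPL20, MRPL36, MRPS30 and MRPS18C, with changes of 0.51 to 1.02. MRPS24, a small-subunit protein with a bacterial counterpart, read 10.76, 11.08 and 11.04 with shERK5-4 and 9.52, 9.73 and 10.00 with shERK5-5, against 9.86, 9.67 and 10.28 with shNSC (change 1.02, SE 0.22, adjusted p = 0.00183). Its shERK5-4 arrays lay above all others of the line. MRPL23 and MRPL24, which surround the exit of the peptide tunnel, changed by 0.87 (SE 0.26, adjusted p = 0.0213) and 0.81 (SE 0.25, adjusted p = 0.0260). The MRPL23 call was lost without CHLA-90 shNSC replicate 2 or 3 or shERK5-4 replicate 1 or 3 (adjusted p = 0.0996, 0.0600, 0.0731 and 0.100), and that of MRPL24 without shNSC replicate 2 or shERK5-4 replicate 1, 2 or 3 (adjusted p = 0.149, 0.0532, 0.0564 and 0.0953).

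The broadest change was that with shERK5-5 in CHLA-90, where 56 of 74 genes had a negative change. By symbol, the 21 that fell comprised 11 of 47 MRPL genes, with a median of -0.34 over the 47. The others were 10 of 27 MRPS genes, with a median of -0.26 over the 27. They ranged from MRPL13 at -1.77 to MRPS2 at -0.51. MRPL14, a protein at the interface between the subunits, read 9.45, 9.32 and 9.19 with shERK5-4 and 8.27, 7.56 and 7.63 with shERK5-5, against 8.99, 8.69 and 9.17 with shNSC, and fell by 1.13 (SE 0.19, adjusted p = 0.000368). MRPS11, a small-subunit protein with a bacterial counterpart, read 8.87, 8.84 and 8.81 with shERK5-4 and 6.59, 8.58 and 8.53 with shERK5-5, against 9.42, 8.87 and 9.11 with shNSC. Its change of -1.23 (SE 0.34, adjusted p = 0.0204) rested in large part on the first shERK5-5 array, and the call was lost without that array (adjusted p = 0.116) without shNSC replicate 1 or 3 (0.0887 and 0.0576) and in the fit to CHLA-90 alone (0.0576). The median change of the 74 genes went to -0.24 without shERK5-5 replicate 1.

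In this comparison the change of all probes varied with their brightness, and the members are bright. All probes were split into 4 equal groups by their mean signal in CHLA-90. Of the brightest group 13.2% fell with shERK5-5 and the median change was -0.06, while 9 of the 36 members in it fell, with a median of -0.36. In the next group 11.3% of probes and 11 of 33 members fell. Split in the same way by signal in SK-N-BE(2), 24.3% of the brightest probes and 9 of 44 members there fell with shERK5-4. In the next group it was 17.5% of probes and 5 of 28 members. With shERK5-4 there, 21.7% of the brightest probes rose, against 5 of the 44 members. The share of members that rose was lower in the next group too, at 2 of 28. With shERK5-4 in CHLA-90, 17.7% of the brightest probes rose and 16.2% fell, against 5 and 2 of the 36 members. In the next group 16.1% rose and 11.7% fell, against 2 and 2 of the 33. Of the 5 dimmer members 1 rose, beside 5.45% of the probes in their group. With shERK5-5 in SK-N-BE(2), 13.4% of the brightest probes rose and 11.7% fell, against 2 and 2 of the 44 members. In the next group 10.9% rose and 10.1% fell, against 4 and 3 of the 28. The groups were set after the values were seen, and the part of brightness in the members' change was not tested further.

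Set directly against shERK5-5, shERK5-4 gave mostly higher values of the 74 genes in CHLA-90 and mostly lower ones in SK-N-BE(2). In CHLA-90, 33 of 74 genes were higher with shERK5-4 than with shERK5-5, beside 14.8% of all probes, and 3 were lower, beside 12.4%, with a median of 0.51 against -0.05 for all probes. The higher ones included 18 of 47 MRPL and 15 of 27 MRPS genes, and the lower ones were MRPL47, MRPL40 and MRPL49. In SK-N-BE(2), 5 were higher with shERK5-4, beside 11.8%, and 16 were lower, beside 12.6%, with a median of -0.15 against 0.03. The 5 were MRPL13, MRPS10, MRPS9, MRPL32 and MRPS35, and the lower ones were led by MRPL47, MRPL40, MRPL49 and MRPL18. Without SK-N-BE(2) shERK5-5 replicate 1 the 16 became 10, and without shERK5-4 replicate 2 the 5 became 9. Of the brightest of the 4 groups of CHLA-90 probes, 26.9% were higher with shERK5-4, as were 17 of the 36 members there. Of the brightest SK-N-BE(2) probes, 26.4% were lower with shERK5-4 and 20.2% higher, against 7 and 3 of the 44 members there. In the next group 18.7% were lower and 19.3% higher, against 8 and 2 of the 28.

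Several genes stood out in this contrast. In CHLA-90 the differences were 1.95 for MRPL13, 1.50 for MRPL14 and 1.41 for MRPS35 (adjusted p = 2.23e-06, 3.81e-06 and 4.13e-07), against -2.02 for MRPL47, -0.96 for MRPL40 and -0.86 for MRPL49 (adjusted p = 4.96e-07, 0.00116 and 0.0256). The MRPL49 call was lost without CHLA-90 shERK5-4 replicate 1 or 2 or shERK5-5 replicate 2 or 3 (adjusted p = 0.0965, 0.0655, 0.0959 and 0.109). In SK-N-BE(2) they were 1.64 for MRPL13, 1.36 for MRPS10 and 1.05 for MRPS9 (adjusted p = 1.54e-05, 5.52e-06 and 0.00131), against -2.92 for MRPL47, -2.76 for MRPL40 and -2.25 for MRPL49 (adjusted p = 1.2e-09, 6.9e-10 and 1.64e-06). The shNSC arrays do not enter these differences.

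**Figure D4:**
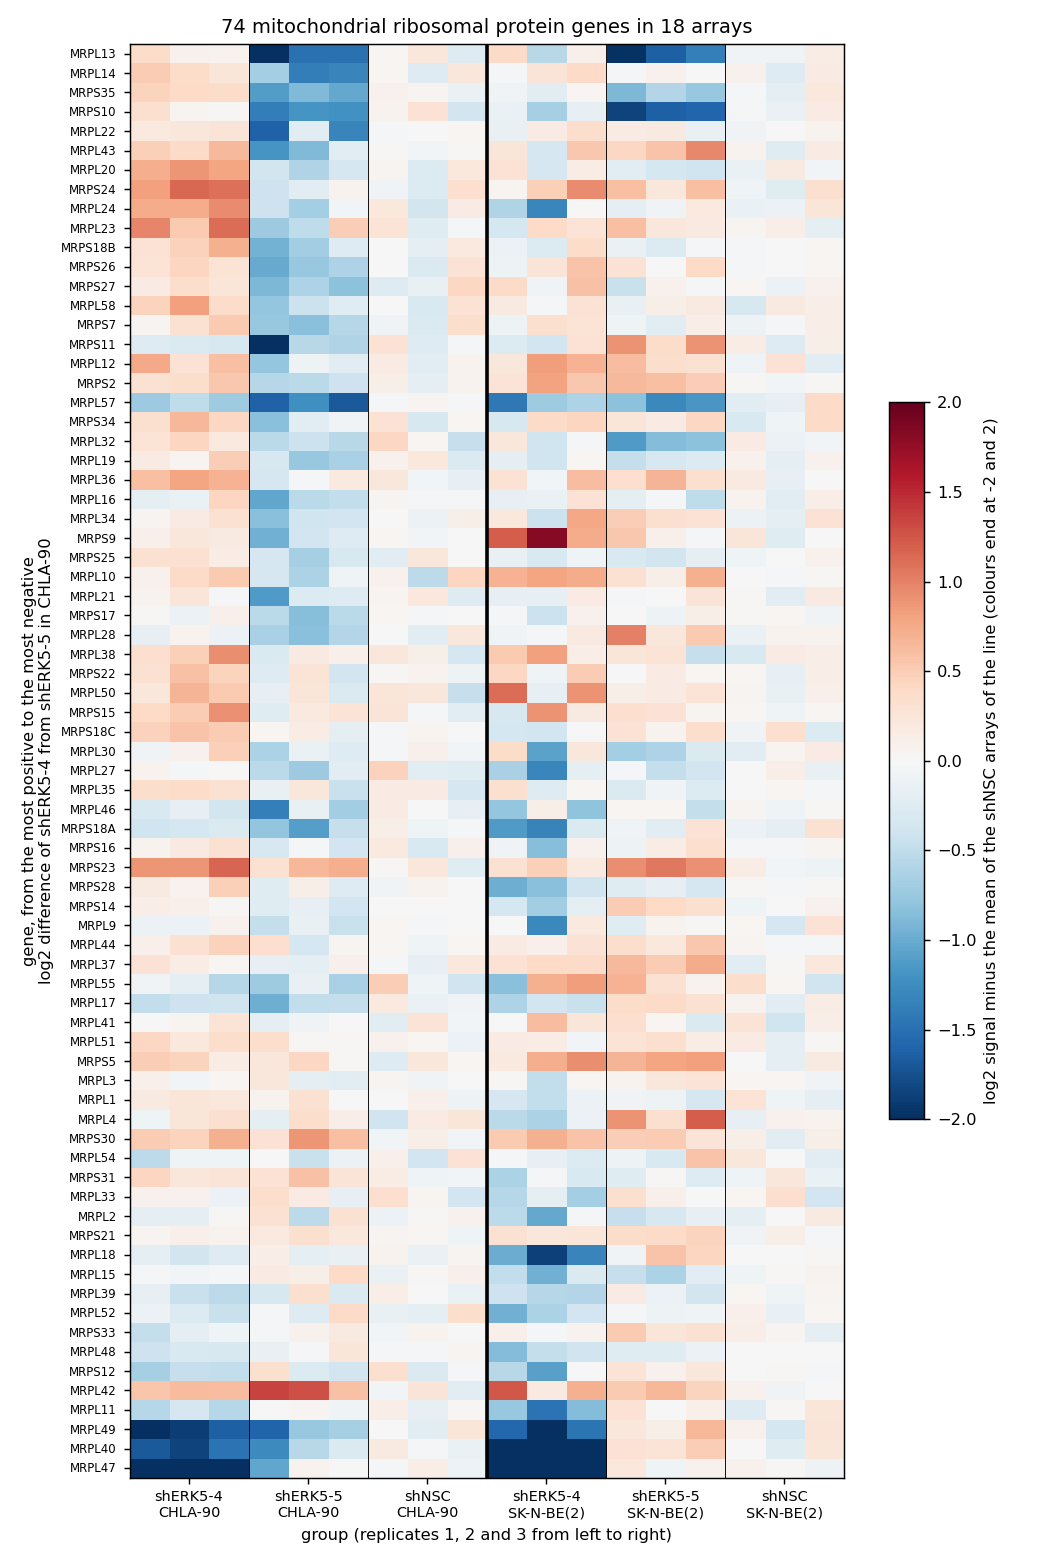
Log2 signal of the 74 genes (1 gene per line of the map) on each of the 18 arrays (columns) minus the shNSC mean of the line, as colour, in the order of the difference between shERK5-4 and shERK5-5 in CHLA-90. The CHLA-90 arrays with shERK5-5 are below their shNSC mean for 56 of the 74 genes by their mean, and MRPL47, MRPL40 and MRPL49 stand at the end where shERK5-4 is lower.

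Whether a hairpin acted differently in the lines was tested by subtracting its SK-N-BE(2) effect from its CHLA-90 effect. For the mean effect of both hairpins, limma called 0 of 74 genes higher, beside 2.19% of all probes, and 0 lower, beside 2.2%. At an unadjusted p below 0.05 there were 3 higher and 7 lower, and with array weights or with trend and robust estimation 1 was lower. The smallest adjusted p was 0.0753, for MRPS9 at -0.91, followed by MRPS2 at -0.61 (adjusted p = 0.0817). One gene was called lower without SK-N-BE(2) shERK5-4 replicate 1 or 3 or CHLA-90 shERK5-5 replicate 2 or 3.

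For shERK5-4 alone, a test added after the values were seen, 3 of 74 genes had a higher effect in CHLA-90, beside 3.89% of all probes, and 1 a lower one, beside 3.33%, with a median difference of 0.26 against 0.00 for all probes. MRPL24 differed by 1.45 (SE 0.35, adjusted p = 0.0125), MRPL18 by 1.12 (SE 0.28, adjusted p = 0.0153) and MRPS28, a small-subunit protein, by 0.98 (SE 0.24, adjusted p = 0.0135). MRPL24 read 11.47, 11.47 and 11.68 in CHLA-90 with shERK5-4, against 10.94, 10.36 and 10.90 with shNSC. Its SK-N-BE(2) values were 9.06, 8.35 and 9.65 with shERK5-4, against 9.53, 9.55 and 9.90 with shNSC. It was therefore above all shNSC arrays in CHLA-90 and overlapped them in SK-N-BE(2). MRPS9 differed by -1.09 (SE 0.33, adjusted p = 0.0465), a call lost without 12 of the 18 arrays (adjusted p of 0.0511 to 0.123).

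For shERK5-5 alone, tested in the same way, 9 of 74 genes had a lower effect in CHLA-90, beside 2.99% of all probes, with a median difference of -0.37 against 0.04 for all probes and a negative difference for 60 of 74. By limma 0 had a higher one, beside 2.4%, with 2 at an unadjusted p below 0.05 and 1 with array weights. The 9 were MRPS11, MRPL43, MRPL49, MRPL28, MRPL14, MRPS2, MRPL40, MRPS26 and MRPL17, at -1.95 to -1.0. MRPL28 and MRPS2 were past the threshold in opposite directions in the lines. MRPL28, a large-subunit protein with a bacterial counterpart, read 6.04, 5.85 and 6.11 in CHLA-90 with shERK5-5, against 6.70, 6.46 and 6.92 with shNSC (change -0.69, SE 0.18, adjusted p = 0.0154). In SK-N-BE(2) it read 9.40, 8.63 and 8.92 with shERK5-5, against 8.26, 8.47 and 8.47 with shNSC (change 0.58, adjusted p = 0.0388). In both lines the hairpin arrays did not overlap the shNSC arrays, and the difference between lines was -1.28 (SE 0.26, adjusted p = 0.00574). For MRPS2 the difference was -1.09 (SE 0.23, adjusted p = 0.00637).

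The count of 9 was 3 without SK-N-BE(2) shNSC replicate 2 and 5 without SK-N-BE(2) shERK5-5 replicate 1 or 3 or CHLA-90 shNSC replicate 1 or 3. MRPL49 was lost without 12 of the 18 arrays (adjusted p of 0.0546 to 0.140), and MRPS11 without SK-N-BE(2) shNSC replicate 2, shERK5-5 replicate 1 or 3 or CHLA-90 shNSC replicate 1 (adjusted p = 0.0621, 0.0517, 0.0559 and 0.0574).

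Under shNSC, 18 of 74 genes were higher in CHLA-90 than in SK-N-BE(2), beside 48.4% of all probes, and 23 were lower, beside 11.6%, with a median difference of -0.07 against 0.45 for all probes. The split depends on the scale, since array medians differ between the lines. With all arrays set to the same median 5 were higher and 47 lower (median -0.79), and after quantile normalization 8 and 42 (median -0.68). MRPL57 at 2.05, MRPS21 at 1.87 and MRPS26 at 1.79 were highest in CHLA-90, against MRPL23 at -2.01, MRPL11 at -1.82 and MRPL28 at -1.71. How the lines were brought to one scale is not given in the sources used here, so a direction between lines for a single gene holds only for the deposited scale.

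Members with a known role of their own were called in some comparisons and not in others. MRPL10, MRPL11, MRPL12, MRPS18A, MRPS18B, MRPS18C, MRPS27 and MRPS30 passed the threshold in 1 or more comparisons with shNSC. So did 46 of all 74 genes and 39.7% of all probes. MRPL58, which releases peptides from stalled ribosomes, MRPL41, linked to p53 and apoptosis, and MRPL44, a relative of RNase III enzymes, passed the threshold in none of the 4 comparisons with shNSC, with changes of -0.48 to 0.54. MRPL58 passed it with shERK5-4 in CHLA-90 under array weights (adjusted p = 0.00711) and without CHLA-90 shNSC replicate 3 or shERK5-5 replicate 1 (0.0332 and 0.0466). MRPS12, the counterpart of the bacterial protein whose mutation gives streptomycin resistance, had -0.54 in CHLA-90 and -0.55 in SK-N-BE(2) with shERK5-4 (SE 0.23, adjusted p = 0.116 and 0.0923), and passed with array weights in CHLA-90 (0.0105) and without SK-N-BE(2) shERK5-4 replicate 3 in SK-N-BE(2) (0.00939). MRPS27, an RNA-binding pentatricopeptide repeat protein, fell by 0.78 with shERK5-5 in CHLA-90 (SE 0.20, adjusted p = 0.0117), a call lost without CHLA-90 shNSC replicate 3 (adjusted p = 0.0934).

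The 3 MRPS18 genes are relatives of 1 bacterial small-subunit protein, and the MRPS18A protein sits in the large subunit. They did not move as one. MRPS18A fell by 0.92 with shERK5-4 in SK-N-BE(2) (SE 0.23, adjusted p = 0.00427) and by 0.78 with shERK5-5 in CHLA-90 (adjusted p = 0.0271). MRPS18B fell by 0.63 with shERK5-5 in CHLA-90 (SE 0.19, adjusted p = 0.0345), and MRPS18C rose by 0.51 with shERK5-4 in CHLA-90 (SE 0.17, adjusted p = 0.0407). The CHLA-90 calls were fragile. That of MRPS18A was lost without shNSC replicate 1, 2 or 3 or shERK5-5 replicate 1 or 2 (adjusted p = 0.0936, 0.0519, 0.0700, 0.0652 and 0.117), that of MRPS18B without shNSC replicate 1 or 3 or shERK5-5 replicate 1 or 2 (0.0833, 0.150, 0.161 and 0.0839), and that of MRPS18C without any 1 of the 6 arrays compared (0.111, 0.0740 and 0.0966 without shNSC replicate 1, 2 and 3, and 0.0783, 0.122 and 0.0937 without shERK5-4 replicate 1, 2 and 3). MRPS18B was also lost with array weights (0.0585) and in the fit to CHLA-90 alone (0.0565), and MRPS18C with a replicate block (0.0579), a common median (0.0617), quantile normalization (0.0647) or trend and robust estimation (0.0589).

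Among the genes that assemble the mitochondrial ribosome and modify its RNA, ERAL1 and MPV17L2 fell with shERK5-4 in both lines. Of 24 measured, 8 fell and 1 rose with shERK5-4 in SK-N-BE(2), beside 11.7% and 12.2% of all probes, with a median of -0.36 against 0.01 for all probes. ERAL1, the GTPase that chaperones the small-subunit ribosomal RNA, fell by 1.77 in CHLA-90 and by 2.39 in SK-N-BE(2) with shERK5-4 (SE 0.21, adjusted p = 1.44e-06 and 1.05e-08), and with shERK5-5 its values were -0.57 and 0.06 (adjusted p = 0.0758 and 0.927). MPV17L2, an inner-membrane protein needed for assembly, fell by 1.28 in CHLA-90 and by 1.17 in SK-N-BE(2) with shERK5-4 (SE 0.22, adjusted p = 0.000169 and 0.000288). NSUN4, an RNA methyltransferase, fell by 1.31 in CHLA-90 and by 0.74 in SK-N-BE(2) with shERK5-5 (SE 0.23, adjusted p = 0.000368 and 0.0322). With shERK5-4 in CHLA-90 2 of the 24 fell and 1 rose, beside 8.25% and 10% (median -0.00), so the share that fell was near that of all probes. With shERK5-5, 3 fell in CHLA-90, beside 6.84% (median -0.23), and 4 fell in SK-N-BE(2), beside 6.07% (median -0.07).

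Of 11 measured translation factors, 3 rose with shERK5-4 in SK-N-BE(2), 2 with shERK5-4 in CHLA-90 and 1 with shERK5-5 in SK-N-BE(2), beside 12.2%, 10% and 6.76% of all probes, while 1 fell with shERK5-5 in CHLA-90, beside 6.84%. Their medians were 0.19, 0.24, 0.35 and -0.12. MTIF3, an initiation factor, rose by 1.86 and 0.99 with shERK5-4 and shERK5-5 in SK-N-BE(2) and by 1.12 with shERK5-4 in CHLA-90 (SE 0.18, adjusted p = 4.11e-08, 0.000386 and 6.6e-05), with 0.04 for shERK5-5 in CHLA-90 (adjusted p = 0.914). OXA1L, which inserts new proteins into the inner membrane, rose by 1.04 with shERK5-4 in SK-N-BE(2) and fell by 0.66 with shERK5-5 in CHLA-90 (SE 0.22, adjusted p = 0.000816 and 0.0468). Of 4 measured ribosomal proteins under other symbols, PTCD3 alone passed the threshold in any of the 4 comparisons of a hairpin with shNSC. Its change was -0.75 with shERK5-4 in SK-N-BE(2) (SE 0.22, adjusted p = 0.0147), where 11.7% of all probes fell.

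The change with shERK5-5 in CHLA-90 was also counted in related large gene sets. Of 53 cytosolic ribosomal protein genes 10 fell there, beside 6.84% of all probes, with a median of -0.33, the same as that of the mitochondrial ones, and 48 of 53 were negative. Of 78 respiratory chain and ATP synthase genes 2 fell and 2 rose, beside 6.84% and 5.85%, with a median of -0.21 and 59 of 78 negative. Between the hairpins in CHLA-90, 16 of the 53 and 28 of the 78 were higher with shERK5-4, beside 14.8% of all probes, with medians of 0.35 for both sets. With shERK5-4 in SK-N-BE(2) the respiratory chain genes had 10 higher and 3 lower, beside 12.2% and 11.7%, and a median of 0.22, against -0.04 for the mitochondrial ribosomal protein genes. Differences between these sets were not tested.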

How the data were processed

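The authors deposited log2 values, 1 per probe and array. The log base was inferred from the range of the values, and how they were summarised and normalized, with which software and build, is not given in the sources used here. Per the labels' protocols, total RNA was labelled with biotin using a GeneChip WT kit. The table gives no detection calls, so the background of a probe is unknown, and precision is limited by the number of arrays.

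Groups came from the labels. One limma model (3.58.1, R 4.3.3) with 6 group means was fitted to all 21448 probes on 18 arrays (lmFit, eBayes, 12 residual and 9.59 prior degrees of freedom). Within each contrast p-values had Benjamini-Hochberg adjustment across the 21448 probes, and an adjusted p below 0.05 was a call, whatever the fold. They measure the spread between biological triplicates as labelled. Changes carry the model's standard errors. The fit was also run on simulated data with equal group means and independent noise, apart from probes changed in a single group. Such data lack the broad changes of these arrays, so the run is no support for the calls here. Figures were drawn with matplotlib 3.10.9.

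Symbols came from the array's probe table, which named 17709 probes. Each of the 74 genes had 1 probe, so no choice between probes arose. Replicate numbers were not taken as pairs. Named were genes called with both hairpins of a line, up to 4 in each direction per hairpin, up to 3 per other contrast, the 3 highest and lowest signals of a line, and members with a known role. Of the other gene lists up to 4 genes were named. The members and lists were chosen with earlier results of these data known. The differences between lines per hairpin, the groups by brightness, the printed sequences and the neighbouring genes were chosen after values were seen. Alternatives were a common median, quantile normalization, leaving out dim probes, a replicate block, fits to 1 line and the mean of the probes of a gene. Others were trend and robust estimation, array weights, a threshold of 0.01, a shorter promoter window and leaving out each array.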

Additional observations from a re-analysis of the deposited data

Results flagged for a closer look

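The effect of a single hairpin differed between CHLA-90 and SK-N-BE(2) for 13 results, by the interaction term of the limma model given as the CHLA-90 change less the SK-N-BE(2) change. For shERK5-4 the difference was 1.45 for MRPL24 (adjusted p = 0.0125), 1.12 for MRPL18 (0.0153), 0.98 for MRPS28 (0.0135) and -1.09 for MRPS9 (0.0465). MRPS28 read 7.75, 7.65 and 8.05 in CHLA-90 with shERK5-4, against 7.50, 7.65 and 7.57 with shNSC, and 7.03, 7.16 and 7.60 in SK-N-BE(2) with shERK5-4, against 8.02, 7.97 and 8.02 with shNSC. It was lower than shNSC only in SK-N-BE(2), where the arrays did not overlap.

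For shERK5-5 it was -1.95 for MRPS11 (adjusted p = 0.0215), -1.41 for MRPL43 (0.0140), -1.35 for MRPL49 (0.0498), -1.28 for MRPL28 (0.00574), -1.15 for MRPL14 (0.0165), -1.09 for MRPS2 (0.00637), -1.06 for MRPL40 (0.0352), -1.02 for MRPS26 (0.0269) and -1.0 for MRPL17 (0.0145). MRPL43, a large-subunit protein, read 12.15, 12.45 and 13.12 in CHLA-90 with shERK5-5, against 13.35, 13.28 and 13.36 with shNSC. In SK-N-BE(2) it read 12.62, 12.79 and 13.18 with shERK5-5, against 12.29, 11.97 and 12.38 with shNSC. The hairpin arrays lay below the shNSC arrays in CHLA-90 and above them in SK-N-BE(2). MRPS26, a small-subunit protein, read 6.10, 6.35 and 6.49 in CHLA-90 with shERK5-5, against 7.11, 6.81 and 7.39 with shNSC, and 5.6, 5.31 and 5.72 in SK-N-BE(2) with shERK5-5, against 5.29, 5.31 and 5.35 with shNSC. These tests were added after the values had been seen.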

How the results depend on the processing

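Of 284 counts and medians under other settings 255 stayed close to the value given and 29 moved, and of 612 with 1 array left out 57 moved. For 107 changes of named genes, no alternative turned a direction that was called in either fit, and turns without a call were not counted. Of 950 values under other settings 42 lost and 9 gained a call. With 1 array left out, 109 of 1926 lost and 5 gained one. A threshold of 0.01 left 1 gene higher and 9 lower with shERK5-4 and 3 higher with shERK5-5 in SK-N-BE(2), and 3 higher with shERK5-4 and 1 higher and 7 lower with shERK5-5 in CHLA-90. It left 10 lower with shERK5-4 than with shERK5-5 in SK-N-BE(2), 0 higher and 0 lower in the difference between lines for shERK5-4 and 2 lower in that for shERK5-5. It left 0 genes higher with both hairpins in SK-N-BE(2), and 0 higher and 0 lower with both in CHLA-90. Array weights gave 12 higher with shERK5-5 in SK-N-BE(2), 18 higher and 9 lower with shERK5-4 in CHLA-90, 4 higher with both hairpins in SK-N-BE(2), 1 lower in the mean difference between lines and 1 higher in that for shERK5-5. Trend and robust estimation also gave 1 lower in the mean difference. Quantile normalization gave 6 lower with shERK5-4 than with shERK5-5 in CHLA-90 and 1 higher with both hairpins in SK-N-BE(2). Under shNSC it gave 8 higher and 42 lower in CHLA-90 (median -0.68), and a common median gave 5 and 47 (median -0.79). The fit to CHLA-90 alone gave 1 higher with both hairpins there. The short promoter window gave 1.52% for the E-box and 0% for the TATA box. In these cases the cause was not tested, and the share of all probes called under each alternative was not counted. Deviations of same-numbered arrays from their group means correlated with r of -0.126 to 0.204, with all 6 pairs of replicate 3 at 0.114 to 0.204. The mean was 0.0791 in CHLA-90 and 0.0605 in SK-N-BE(2). For different numbers it was -0.0397 and -0.0304. Deviations sum to 0 within a group, so these values largely follow from the same-number means and add little. Since some same-number pairs other than those of replicate 3 were below 0, the numbers were not taken as pairs. With a replicate block no count moved by over 1.5 times (with shERK5-4 in SK-N-BE(2), 6 higher and 15 lower), MRPL12 and MRPS18C lost a call, and MRPS18B gained one with shERK5-4 in CHLA-90 (adjusted p = 0.0446).

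Leaving out 1 array, the genes higher in SK-N-BE(2) numbered 3 to 8 with shERK5-4 and 3 to 8 with shERK5-5. In CHLA-90 they numbered 4 to 10 with shERK5-4 and 1 to 3 with shERK5-5, and 11 to 23 were lower with shERK5-5 (median -0.41 to -0.24). Of shERK5-4 against shERK5-5, 5 to 9 were higher and 10 to 19 lower in SK-N-BE(2), and the CHLA-90 median was 0.41 to 0.55. In the differences between lines 0 to 1 were lower for the mean effect, 0 to 1 for shERK5-4 and 3 to 11 for shERK5-5. With both hairpins 0 to 2 were higher in SK-N-BE(2), and 0 to 3 higher and 0 to 3 lower in CHLA-90. The median with shERK5-4 in SK-N-BE(2) lay between -0.13 and 0.04. Without detection calls it is unknown how far background limits the changes of dim probes such as that of MRPL13.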

Other observations

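Genes that keep and read mitochondrial DNA changed with single hairpins too. Of 17 measured, 6 fell and 1 rose with shERK5-4 in SK-N-BE(2), beside 11.7% and 12.2% of all probes, with a median of -0.40 against 0.01 for all probes, and 2 fell and 2 rose with shERK5-5 there, beside 6.07% and 6.76%, with a median of -0.03 against -0.00. HSD17B10, a subunit of mitochondrial RNase P, fell with shERK5-4, with changes of -1.74 in CHLA-90 and -2.80 in SK-N-BE(2) (SE 0.15, adjusted p = 2.26e-08 and 9.58e-12) and rose by 1.11 and 1.24 with shERK5-5 (adjusted p = 3.14e-05 and 4.58e-06). TFAM, which packages mitochondrial DNA, fell by 1.68 with shERK5-5 in SK-N-BE(2) (SE 0.20, adjusted p = 3.05e-06). TWNK, the mitochondrial DNA helicase, and SSBP1, which binds single-stranded mitochondrial DNA, fell by 1.22 and 1.10 with shERK5-4 in SK-N-BE(2) (adjusted p = 1.5e-05 and 0.000121). Of 18 measured mitochondrial tRNA synthetases, 3 rose and 3 fell with shERK5-4 in SK-N-BE(2), beside 12.2% and 11.7% (median -0.08), and 1 rose and 2 fell with shERK5-5 in CHLA-90, beside 5.85% and 6.84% (median -0.14 against 0.05). RARS2, the arginine enzyme, rose by 1.20 with shERK5-5 and by 0.71 with shERK5-4 in CHLA-90 (SE 0.15, adjusted p = 8.19e-06 and 0.00137). Of 8 measured regulators of nuclear genes for mitochondria, 3 fell with shERK5-4 in SK-N-BE(2), beside 11.7% of all probes: MYCN by 2.02, PPRC1 by 1.48 and NRF1 by 0.91 (adjusted p = 7.12e-09, 2.43e-06 and 0.00113). MYCN also fell by 1.89 with shERK5-4 in CHLA-90 and rose by 0.97 with shERK5-5 there (SE 0.17, adjusted p = 3.46e-08 and 0.000503). A relation of these regulators to the mitochondrial ribosomal protein genes was not tested.

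Some members share their start region with another gene read from the opposite strand. Within 1000 bases 22 members had such a neighbour in RefSeq, 15 of them with the neighbour on the array, and of 16 member calls the neighbour was called the same way for 5 and the other way for 1. Averaged over these calls, 8.36% of all probes were called the same way in that comparison and 8.22% the other way. Those shares were not matched for brightness. The 5 came from MRPL49 with FAU, MRPS2 with PIERCE1 and MRPL27 with EME1 only. A pair can count in several comparisons, and those of a line share the shNSC arrays, so the calls are not independent. The opposite pair was MRPL37 and CYB5RL with shERK5-5 in SK-N-BE(2), at 0.63 and -0.81 (adjusted p = 0.00993 and 0.00464). FAU, which encodes a cytosolic ribosomal protein fused to a ubiquitin-like one, starts 49 bases from MRPL49. It changed by -1.12 in CHLA-90 and by -1.90 in SK-N-BE(2) with shERK5-4 (SE 0.36, adjusted p = 0.0313 and 0.000286), beside -1.87 and -1.91 for MRPL49. With shERK5-5 FAU had -0.89 in CHLA-90 and 0.22 in SK-N-BE(2) (adjusted p = 0.110 and 0.813). SKA3, a kinetochore gene whose start lies 106 bases from that of MRPL57, did not pass the threshold in any of the 4 comparisons, at -0.40 to 0.21. PIERCE1, 813 bases from MRPS2, rose with both hairpins in SK-N-BE(2), by 1.94 and 1.09 (SE 0.25, adjusted p = 2.6e-06 and 0.00376), as MRPS2 did. In CHLA-90 it rose by 0.84 with shERK5-4 (adjusted p = 0.0199), where MRPS2 had 0.40 (adjusted p = 0.0942), and with shERK5-5 it had 0.21 (adjusted p = 0.659), where MRPS2 fell by 0.51. EME1, 45 bases from MRPL27, fell by 0.56 with shERK5-4 in SK-N-BE(2) (adjusted p = 0.0454), as MRPL27 did by 0.72 (adjusted p = 0.0280). These pairs were looked up after the members' values were seen.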
